A study of Mus musculus with 6 samples.

Results

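Desmoplakin, 2 other desmosome genes, 3 syndecans and 2 transglutaminases were followed through the transcriptomes of Mirc11-/- and wildtype hematopoietic stem and progenitor cells (HSPCs). The 8 genes are Dsp, Jup, Dsg2, Sdc2, Sdc3, Sdc4, Tgm2 and Tgm1, out of 23997 gene symbols in the deposited table. They were chosen by name, as genes of cell junctions and of the cell surface and matrix, to stand beside Dsp, Sdc2 and Tgm2, whose genotype differences in these same libraries were already known. Their genotype differences are therefore given as a description, with no test. All 8 genes had a mean above the minimum of 1 normalized count used for the fits, as did 15662 genes in all.

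RNA was sequenced from bone marrow cells sorted as Lin-Sca1+cKit+ (LSK), a gate that removes cells bearing markers of mature blood lineages and keeps stem cells with multipotent progenitors. There were 3 Mirc11-/- libraries and 3 wildtype libraries, all on the C57BL/6 background, from untreated mice aged 6 to 8 weeks, and each RNA preparation pooled cells of 3 to 4 mice. Mirc11-/- mice lack the miR-23a, miR-27a and miR-24-2 cluster, while the related cluster Mirc22 is not listed as altered in either genotype. The paper describes Mirc22 as a paralog with its own miR-23, miR-27 and miR-24 members, so related microRNAs may remain in Mirc11-/- cells. The study's text and methods give the LSK gate, while a figure legend of the study gives the sequenced cells as negative for Sca1, and all libraries carry one batch label.

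Desmosomes are spot-like junctions in which cadherins of adjoining cells (desmogleins and desmocollins) are tied through plakoglobin and plakophilins to desmoplakin, which in turn holds the intermediate filaments. They are best known from epidermis and heart muscle, and blood cells are not known to build them. Syndecans are transmembrane proteoglycans whose heparan sulfate chains bind growth factors, chemokines and matrix proteins. Transglutaminases join glutamine to lysine side chains of proteins, and transglutaminase 2 also binds GTP, fibronectin and integrins at the cell surface.

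The mature microRNAs of the deleted cluster are shown because their seeds were searched for in the 3′ UTRs of the 8 genes. The sequences are those of RefSeq on GRCm38.p6, where they lie on chromosome 8, with the seed (bases 2 to 8) in capitals.
mmu-miR-23a-3p: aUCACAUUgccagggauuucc
mmu-miR-27a-3p: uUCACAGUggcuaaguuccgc
mmu-miR-24-3p: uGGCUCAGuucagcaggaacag
A match was 7 or 8 nucleotides long: AATGTGA or ATGTGAA for miR-23a-3p, ACTGTGA or CTGTGAA for miR-27a-3p and CTGAGCC or TGAGCCA for miR-24-3p, on the strand of the transcript. Of the 8 genes, 5 held at least 1 match in their longest annotated 3′ UTR, with 8 matches in all. Sdc2 held 4, and Jup, Dsg2, Sdc3 and Tgm2 held 1 each. Dsp, Sdc4 and Tgm1 held 0. The matches of Sdc2 and Tgm2 are printed as genes with higher values in Mirc11-/- HSPCs, and that of Sdc3, a gene with lower values, as the 1 match of 8 nucleotides. Capitals mark the match, and the windows are given 5′ to 3′ on the transcript with mm10 (GRCm38) coordinates.
Sdc2, miR-27a-3p, chr15:33032727-33032756, plus strand: atctaacatctgcagtgttCTGTGAAtagc
Sdc2, miR-27a-3p, chr15:33034258-33034287, plus strand: cattagtttttagttttaaACTGTGAgcca
Sdc2, miR-24-3p, chr15:33034262-33034291, plus strand: agtttttagttttaaactgTGAGCCAtgga
Sdc2, miR-23a-3p, chr15:33034906-33034935, plus strand: ttcctgctttttaaagcacATGTGAAcaaa
Tgm2, miR-23a-3p, chr2:158116431-158116460, minus strand: aggcatgctttcaaagcacATGTGAAcact
Sdc3, miR-24-3p, chr4:130823999-130824028, plus strand: atgtatctcctttctgctCTGAGCCAggag
The middle pair of Sdc2 windows overlap, and their matches share bases. Such matches were common. Among 13566 tested genes with an annotated 3′ UTR, 20.5% held a match of 8 nucleotides, against 1 of the 8 genes. How often a 3′ UTR holds 4 matches was not counted. At least 1 match of either length was held by 55.4%, and the share grew with UTR length. Of 3′ UTRs within 20% of the length of that of Sdc2 (2395 bases) 78.4% held a match, of those near Tgm2 (1399 bases) 61.0%, of those near Dsp (645 bases) 35.7% and of those near Sdc3 (3510 bases) 88.9%. A match describes these letters only, and binding was not measured. The name miR-24-3p does not tell the product of this cluster from the miR-24 of Mirc22. Mature microRNAs were not measured, so a loss of miR-24-3p from Mirc11-/- cells is not shown. Whether microRNAs of Mirc22 can use the same matches was not tested.

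The libraries held 15029379 to 17051541 reads in genes (Mirc11-/-) and 15772826 to 16250826 (wildtype). The precursors Mir23a, Mir27a and Mir24-2 had 0 reads over the Mirc11-/- libraries, against 51, 54 and 73 reads over the wildtype libraries. Kit, which the gate selects, lay at 6644 to 9950 normalized counts in Mirc11-/- and 8577 to 9416 in wildtype libraries, and Ly6a, which encodes Sca1, at 374 to 534 and 444 to 683. The Mirc11-/- libraries did not form 1 cluster: on the first principal component libraries 1 and 2 lay at -54.6 and -25.5, library 3 at 19.5 and the wildtype libraries at 13.5 to 26.2. The summed erythroid markers, led by Car2 and Tfrc, separated the libraries in the same way. They came to 68017, 62339 and 29305 normalized counts in Mirc11-/- libraries 1 to 3, against 38118, 28724 and 27400 in wildtype libraries 1 to 3, with 23 of 24 markers in the table and none at 0 throughout.

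Dsp, the plakin that anchors intermediate filaments at the desmosome, had the largest genotype difference of the 8 genes. It had 58.6, 198 and 184 normalized counts in Mirc11-/- libraries 1 to 3, against 19.7, 34.7 and 33.4 in wildtype libraries 1 to 3. All Mirc11-/- values lay above all wildtype values, and library 1 was the lowest within each genotype. The means were 147 ± 76.9 in Mirc11-/- and 29.3 ± 8.32 in wildtype HSPCs (SD, n = 3 each), a ratio of 5.02. The log2 fold change on the log2(value + 1) scale was 2.14 (SE 0.46). It was 2.71 without Mirc11-/- library 1 and 1.84 without Mirc11-/- library 2. The counts behind these values were 62, 191 and 183 reads in Mirc11-/- against 20, 35 and 33 in wildtype libraries, so the wildtype values carry the larger relative counting error. The gene lies at chr13:38151294-38198577 on the plus strand in GENCODE vM21.

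Jup encodes plakoglobin, an armadillo protein shared by desmosomes and adherens junctions. It had 200, 246 and 358 normalized counts in Mirc11-/- libraries against 268, 233 and 381 in wildtype libraries. The genotypes overlapped, and library 3 was the highest of each. The log2 fold change of Jup was -0.15 (SE 0.25), and over the fits with 1 library left out it ranged from -0.38 to 0.06. Dsg2, the desmoglein found in the widest range of tissues, had 18.0, 16.6 and 38.2 normalized counts in Mirc11-/- libraries against 34.5, 15.9 and 28.4 in wildtype libraries. Its genotypes also overlapped, with a log2 fold change of -0.14 (SE 0.42) and a change of sign in 3 of the 6 fits with 1 library left out. Jup lies at chr11:100368958-100397763 on the minus strand, and Dsg2 at chr18:20558074-20604521 on the plus strand. Per kb of transcript, Dsp stood to Jup at a ratio of 0.0982, 0.269 and 0.172 in Mirc11-/- libraries, against 0.0246, 0.0498 and 0.0293 in wildtype libraries. Even in the library where it was highest, Dsp thus remained below Jup. The size of that gap depends on the length used. The longest transcript of Jup has 3205 bases and its exon union 6436, against 9592 and 9659 for Dsp.

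**Figure D1:**
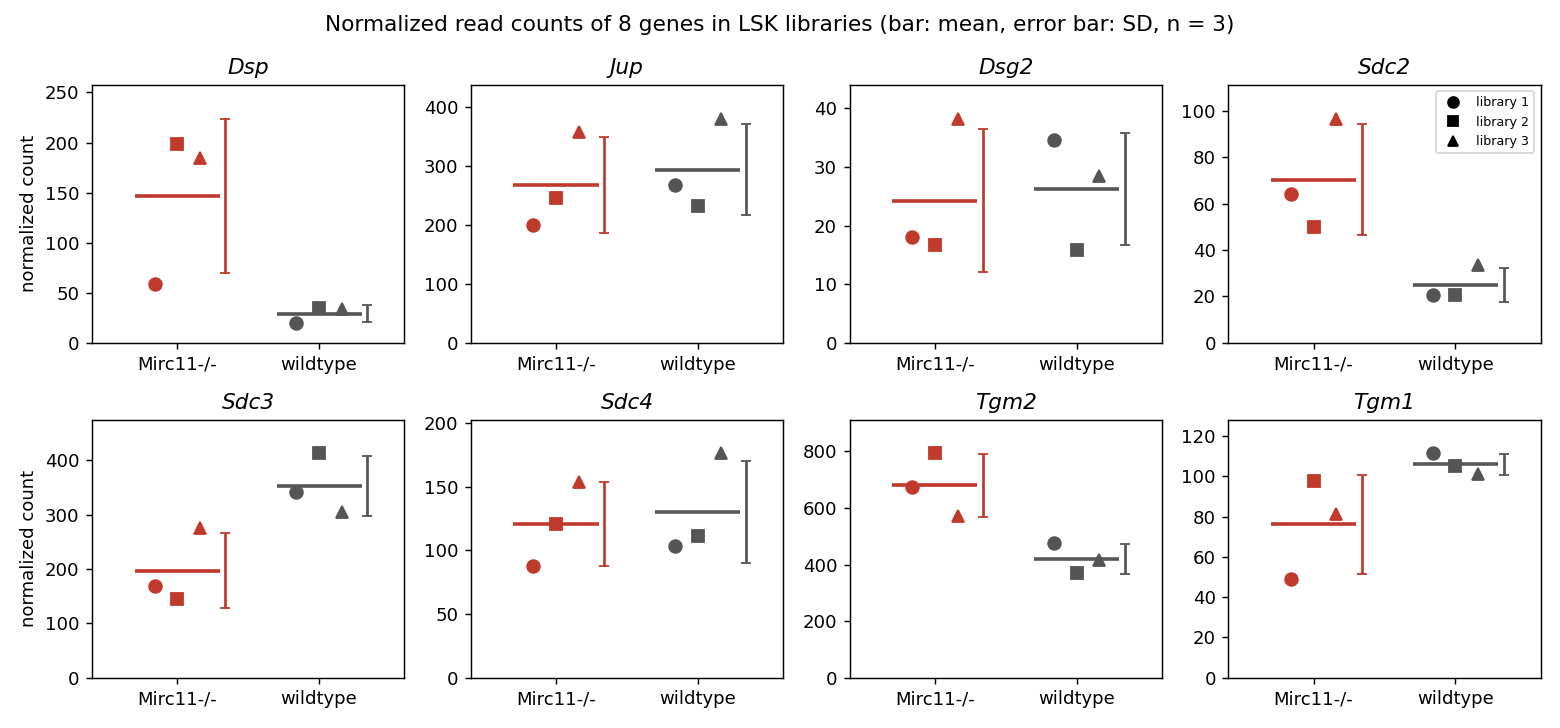
Normalized read counts of the 8 genes (vertical axes, each starting at 0) in the 3 Mirc11-/- libraries (red) and the 3 wildtype libraries (grey); horizontal bars are means, error bars SD, and symbols mark the library number. Dsp, Sdc2 and Tgm2 lie above the wildtype range in all Mirc11-/- libraries, Sdc3 and Tgm1 lie below it, and Jup, Dsg2 and Sdc4 overlap.

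The desmosomal cadherins other than Dsg2 were at or near 0 reads. Some other genes of the desmosome, and genes that desmosomes share with other structures, were expressed. Of 29 listed genes, 20 reached the minimum. At an adjusted p of 0.05 in limma 0 passed, where over all genes tested 0.00638% passed as higher and 0.0255% as lower, 1 and 4 genes. At an unadjusted p of 0.05 there were 0 higher and 2 lower in Mirc11-/- HSPCs, where 4.15% of all genes were higher and 4.09% lower. Their median log2 fold change was 0.02, against 0.00 over all genes tested. The desmosomal cadherins Dsg1a, Dsg1b, Dsg1c, Dsg3, Dsg4 and Dsc3 and the muscle filament gene Des had 0 reads in every library, which allows up to 3 reads in each. Dsc2, the desmocollin that reached the minimum, had at most 2.08 normalized counts in Mirc11-/- and 2.03 in wildtype libraries. The plakophilin gene Pkp3 had 83.2, 93.5 and 132 normalized counts in Mirc11-/- libraries against 127, 149 and 141 in wildtype libraries. Perp had 18.9, 24.9 and 37.2 against 31.6, 25.8 and 34.5. Pkp2 reached at most 28.04 in Mirc11-/- and 23.3 in wildtype libraries. The genotypes overlapped for Pkp3, Perp and Pkp2. Among other plakins, Plec and Macf1, which are expressed in most cell types, were abundant. Plec averaged 3789 ± 76.3 normalized counts in Mirc11-/- and 3568 ± 876 in wildtype HSPCs, and Macf1 8978 ± 1079 and 9411 ± 1735 (SD, n = 3 each). Ppl, a plakin of the cornified envelope, did not exceed 1.89 in Mirc11-/- and 3.97 in wildtype libraries.

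The smallest p of this list belonged to Evpl, which encodes envoplakin, a partner of periplakin in the cornified envelope. Evpl had 138, 170 and 184 normalized counts in Mirc11-/- libraries against 219, 263 and 233 in wildtype libraries. These ranges did not overlap, and the log2 fold change was -0.54 (SE 0.16, adjusted p = 0.459, limma). Pkp4, a plakophilin relative found at junctions of many cell types, had a log2 fold change of -0.40 (adjusted p = 0.459, limma). Ctnnd1, which encodes p120-catenin, had one of 0.21 (adjusted p = 0.600, limma). Evpl and Pkp4 were the 2 genes of the list under an unadjusted p of 0.05. Without overlap between the genotypes, 1 of the 20 tested genes was higher and 2 were lower in Mirc11-/- HSPCs, where 6.42% and 6.53% of all tested genes were.

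Among the syndecans, Sdc2 was higher and Sdc3 lower in all Mirc11-/- libraries than in any wildtype library. Sdc2, known from mesenchymal cells, had 64.3, 49.8 and 96.6 normalized counts in Mirc11-/- libraries, against 20.7, 20.8 and 33.4 in wildtype libraries. The lowest Mirc11-/- value stood above the highest wildtype value, and library 3 was the highest of each genotype. The means were 70.3 ± 23.9 in Mirc11-/- and 25.0 ± 7.31 in wildtype HSPCs (SD, n = 3 each), a ratio of 2.81 and a log2 fold change of 1.44 (SE 0.33). Leaving out single libraries gave 1.18 (without Mirc11-/- library 3) to 1.66 (without wildtype library 3). Reads numbered 68, 48 and 96 in Mirc11-/- libraries against 21, 21 and 33 in wildtype libraries. Sdc2 lies at chr15:32920723-33034935 on the plus strand, and no other annotated gene overlaps it.

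Sdc3, known above all from the nervous system, was lower in Mirc11-/- HSPCs. It had 169, 145 and 276 normalized counts in Mirc11-/- libraries and 341, 413 and 305 in wildtype libraries. The gap was wide for Mirc11-/- libraries 1 and 2 and narrow for library 3. The means were 197 ± 69.4 and 353 ± 54.9 (SD, n = 3 each), and the log2 fold change was -0.88 (SE 0.24), or -1.15 without Mirc11-/- library 3 and -0.69 without Mirc11-/- library 2. Sdc4, a syndecan of focal adhesions, had 88.0, 120 and 154 normalized counts in Mirc11-/- libraries against 104, 111 and 176 in wildtype libraries. Its genotypes overlapped, and the log2 fold change of Sdc4 was -0.10 (SE 0.27), from -0.30 to 0.13 with 1 library left out. Sdc3 lies at chr4:130792537-130826319 on the plus strand and Sdc4 at chr2:164424247-164443887 on the minus strand.

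Sdc1, the fourth syndecan of the mouse, known from plasma cells and epithelia, was set beside them from the list of heparan sulfate genes. Sdc1 had 358, 316 and 511 normalized counts in Mirc11-/- libraries against 648, 686 and 562 in wildtype libraries. Like Sdc3 it was lower in all Mirc11-/- libraries, with library 3 closest to the wildtype, and the log2 fold change was -0.70 (SE 0.18, adjusted p = 0.425, limma). Per kb of transcript, the 4 syndecans came to 202, 192 and 307 in Mirc11-/- libraries against 322, 351 and 321 in wildtype libraries. Sdc2 made up 9.04%, 7.35% and 8.91% of that sum in Mirc11-/- libraries against 1.82%, 1.68% and 2.96% in wildtype libraries. The shares did not overlap between the genotypes. That follows from the values above, with Sdc2 higher and the sum lower in every Mirc11-/- library, and adds no separate result. Sdc1 was the most abundant syndecan in every library, at 52.0% to 56.3% of the sum in Mirc11-/- and 55.6% to 63.8% in wildtype libraries.

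**Figure D2:**
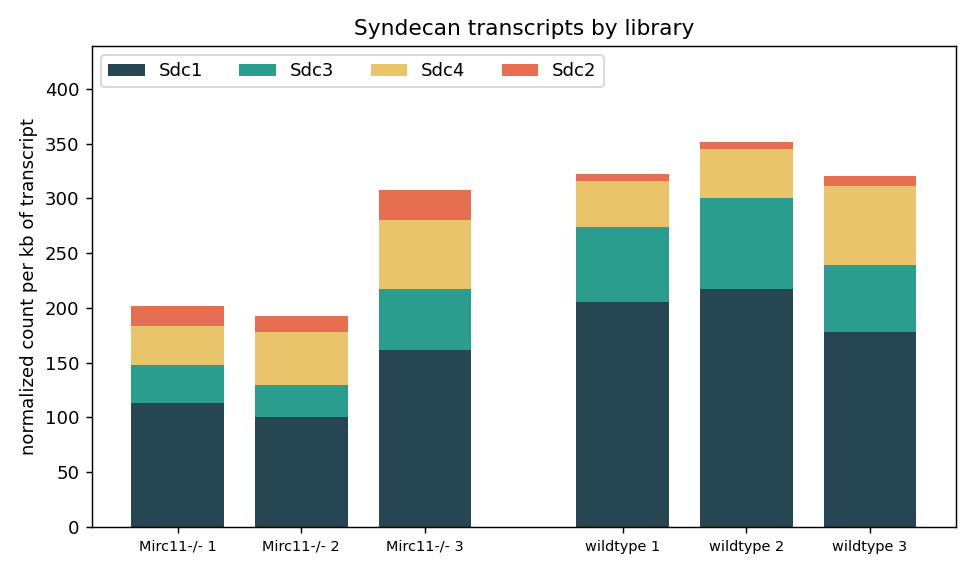
Stacked levels of the 4 syndecans in each library, in normalized counts per kb of the longest annotated transcript, with the Mirc11-/- libraries on the left and the wildtype libraries on the right. Sdc2 is 7.35% to 9.04% of the column in Mirc11-/- and 1.68% to 2.96% in wildtype libraries, and the columns of Mirc11-/- libraries 1 and 2 are the shortest.

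The other genes that make, carry, trim or bind heparan sulfate numbered 40 with Sdc1, of which 30 reached the minimum. None passed the limma test, and at an unadjusted p of 0.05 there were 5 higher and 1 lower in Mirc11-/- HSPCs, against 4.15% and 4.09% of all genes. Their median log2 fold change was 0.07, and without overlap 6 were higher and 1 was lower, against 6.42% and 6.53% of all tested genes. Hs6st1, a 6-O-sulfotransferase of heparan sulfate, had 1354, 1245 and 977 normalized counts in Mirc11-/- libraries against 920, 828 and 972 in wildtype libraries. Library 3 lay barely above the highest wildtype library, and the log2 fold change was 0.38 (SE 0.13, adjusted p = 0.502, limma). Sdcbp2, which encodes a PDZ protein related to the syndecan adaptor syntenin, had a log2 fold change of 1.79 (adjusted p = 0.505, limma) on at most 8.31 normalized counts in Mirc11-/- and 1.98 in wildtype libraries.

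Tgm2, tissue transglutaminase, had the highest mean level per kb of the 8 genes in both genotypes, although Jup, at 119 per kb, was above it (116) in wildtype library 3. Tgm2 had 674, 793 and 573 normalized counts in Mirc11-/- libraries, against 475, 370 and 416 in wildtype libraries. All Mirc11-/- values were higher than all wildtype values, with library 3 the closest to the wildtype. The means were 680 ± 111 in Mirc11-/- and 421 ± 52.7 in wildtype HSPCs (SD, n = 3 each), a ratio of 1.62, and the log2 fold change was 0.69 (SE 0.15). It ranged from 0.57 (without Mirc11-/- library 2) to 0.80 (without Mirc11-/- library 3). Tgm2 lies at chr2:158116402-158146436 on the minus strand. Its exons share 370 bases with those of Rprd1b and 633 with those of Gm20412, both on the opposite strand. Gm20412 was not among the genes tested. Whether the counting used strand is not given in the sources used here. Rprd1b had 1755, 1611 and 1456 normalized counts in Mirc11-/- libraries against 1434, 1473 and 1481 in wildtype libraries, which overlapped.

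Tgm1, the membrane-bound transglutaminase known from keratinocytes, lay on the other side. It had 49.2, 97.6 and 81.5 normalized counts in Mirc11-/- libraries and 111, 105 and 101 in wildtype libraries. Mirc11-/- library 2 was just under the lowest wildtype library, so that the separation is narrow. The means of Tgm1 were 76.1 ± 24.7 and 106 ± 5.10 (SD, n = 3 each), and the log2 fold change of -0.53 (SE 0.26) shrank to -0.25 without Mirc11-/- library 1. Per kb of transcript Tgm2 exceeded Tgm1 by a factor of 10.9, 6.45 and 5.57 in Mirc11-/- libraries, against 3.38, 2.79 and 3.26 in wildtype libraries. Other genes of the family were also expressed. F13a1 averaged 4371 ± 2941 normalized counts in Mirc11-/- and 3141 ± 914 in wildtype HSPCs, more than Tgm2. Tgm4 averaged 188 ± 29.2 and 187 ± 24.0, more than Tgm1 (SD, n = 3 each). Tgm1 lies at chr14:55700009-55713926 on the minus strand.

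Of 25 listed genes of the transglutaminase family or of proteins that transglutaminase 2 binds or modifies, 23 were in the table, 17 reached the minimum and 0 passed the limma test. At an unadjusted p of 0.05 there were 2 higher and 0 lower in Mirc11-/- HSPCs, against 4.15% and 4.09% of all genes, and the median log2 fold change was 0.09. Without overlap, 3 were higher and 1 was lower, against 6.42% and 6.53% of all genes. The 2 genes under that p were integrin β chains. Itgb3, which pairs with αIIb on platelets and with αv on other cells, had 390, 411 and 319 normalized counts in Mirc11-/- libraries against 268, 252 and 311 in wildtype libraries. Its ranges did not overlap, and its log2 fold change came to 0.43 (SE 0.14, adjusted p = 0.502, limma). Itgb1, the β chain of most matrix-binding integrins, had a log2 fold change of 0.23 (adjusted p = 0.510, limma). Fn1, which encodes fibronectin, had 581, 140 and 95.6 normalized counts in Mirc11-/- libraries against 104, 87.3 and 69.9 in wildtype libraries. Its log2 fold change of 1.20 (adjusted p = 0.614, limma) rests largely on Mirc11-/- library 1, and the genotypes overlapped.

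The transglutaminase list had 0 calls in every fit, and calls in the other related lists appeared only without Mirc11-/- library 3. Without it 3.40% of all genes passed the limma test, among them Sdc1 (log2 -0.90, adjusted p = 0.00987, limma), Hs6st1 (0.52, adjusted p = 0.0269, limma) and Pkp4 (-0.50, adjusted p = 0.0403, limma). With all libraries, neither edgeR nor DESeq2 on the recovered reads called any gene of these lists.

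**Figure D3:**
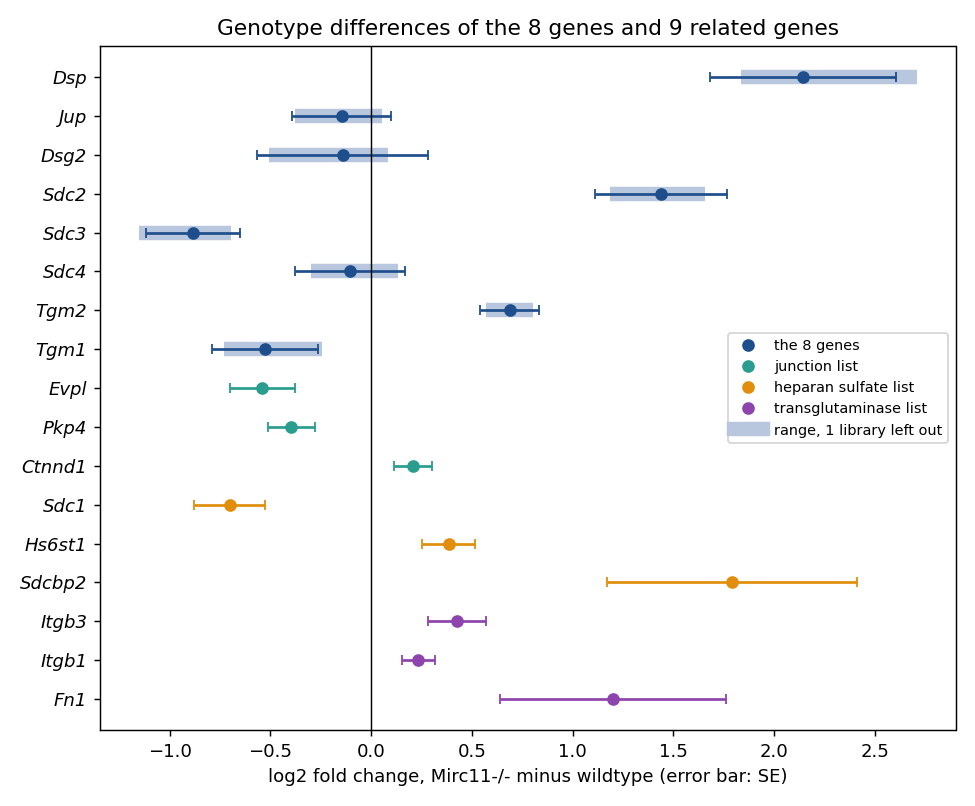
Log2 fold changes, Mirc11-/- minus wildtype, on the log2(normalized count + 1) scale for the 8 genes (dark blue) and the 3 genes with the smallest p of each related list; error bars are SE, and pale bars span the values of the 8 genes with 1 library left out. Dsp is at 2.14, Sdc2 at 1.44 and Tgm2 at 0.69, while the pale bars of Jup, Dsg2 and Sdc4 cross 0.

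Counted by overlap, 3 of the 8 genes were higher in all Mirc11-/- libraries than in any wildtype library (Dsp, Sdc2 and Tgm2) and 2 were lower (Sdc3 and Tgm1). Over all genes tested 6.42% were higher and 6.53% lower without overlap, and since the 8 genes were chosen with this contrast known, nothing is read from their larger share. The median log2 fold change of the 8 genes was -0.12, against 0.00 over all genes tested.

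Levels of the 8 genes can be ordered per kb of the longest annotated transcript. In Mirc11-/- HSPCs the order of levels was Tgm2 (189 ± 30.7 normalized counts per kb), Jup (83.6 ± 25.4), Sdc4 (49.1 ± 13.4), Sdc3 (39.6 ± 14.0), Tgm1 (26.7 ± 8.65), Sdc2 (19.9 ± 6.79), Dsp (15.3 ± 8.02) and Dsg2 (4.21 ± 2.10). In wildtype HSPCs it was Tgm2 (117 ± 14.7), Jup (91.8 ± 24.1), Sdc3 (71.0 ± 11.04), Sdc4 (53.0 ± 16.3), Tgm1 (37.2 ± 1.79), Sdc2 (7.09 ± 2.07), Dsg2 (4.55 ± 1.65) and Dsp (3.05 ± 0.87), each with its SD over 3 libraries. In Mirc11-/- HSPCs only Tgm2 over Jup and Dsp over Dsg2 were set apart by more than the sum of their SDs, and the neighbours between them were not. In wildtype HSPCs only Tgm1 over Sdc2 was, so the places above and below that step are not settled. Dsp thus had the lowest mean of the 8 genes in the wildtype and stood beside Sdc2 in Mirc11-/- HSPCs.

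The 8 genes did not all follow the same course over the libraries. Jup and Sdc4 ran nearly in parallel, at -0.53, -0.22 and 0.31 (Jup) and -0.52, -0.07 and 0.28 (Sdc4) from the wildtype mean on the log2 scale in Mirc11-/- libraries 1 to 3, against -0.10, -0.30 and 0.40 (Jup) and -0.29, -0.19 and 0.47 (Sdc4) in wildtype libraries 1 to 3. Tgm2 was highest and Sdc3 lowest in Mirc11-/- libraries 1 and 2, the libraries with the largest erythroid sums (68017 and 62339 against 29305 in Mirc11-/- library 3). Among the Mirc11-/- libraries Dsp was higher in libraries 2 and 3 than in library 1, as were most of the neutrophil markers. The median distance of the neutrophil markers from the wildtype mean, on the log2 scale, was 0.09, 1.29 and 0.89 in Mirc11-/- libraries 1 to 3. In wildtype libraries 1 to 3 it was 0.46, -0.50 and 0.06, highest in library 1, where Dsp was lowest of the wildtype. Among the Mirc11-/- libraries, the gate, megakaryocyte, endothelial, stromal and epithelial medians were also lowest in library 1. The erythroid median and the mast cell and basophil median were highest there. The neutrophil sum, led by S100a9 and S100a8, ran from 8845 to 23225 in Mirc11-/- and from 11220 to 19396 in wildtype libraries, and overlapped. Of its 10 genes in the table, Mmp9, Mmp8 and Retnlg were higher without overlap, and these were highest in Mirc11-/- library 1, where Dsp was lowest of that genotype. When the averaged erythroid markers entered the fit as a covariate, the log2 fold change was 2.82 for Dsp, 1.85 for Sdc2, 0.49 for Tgm2, -0.52 for Sdc3 and -0.35 for Tgm1. Jup, Dsg2 and Sdc4, at 0.27, 0.27 and 0.32, then changed sign. Beyond these values the part of other cells in the differences was not tested. In bulk RNA, a change in the number of cells that express a gene and a change in RNA per cell cannot be told apart.

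**Figure D4:**
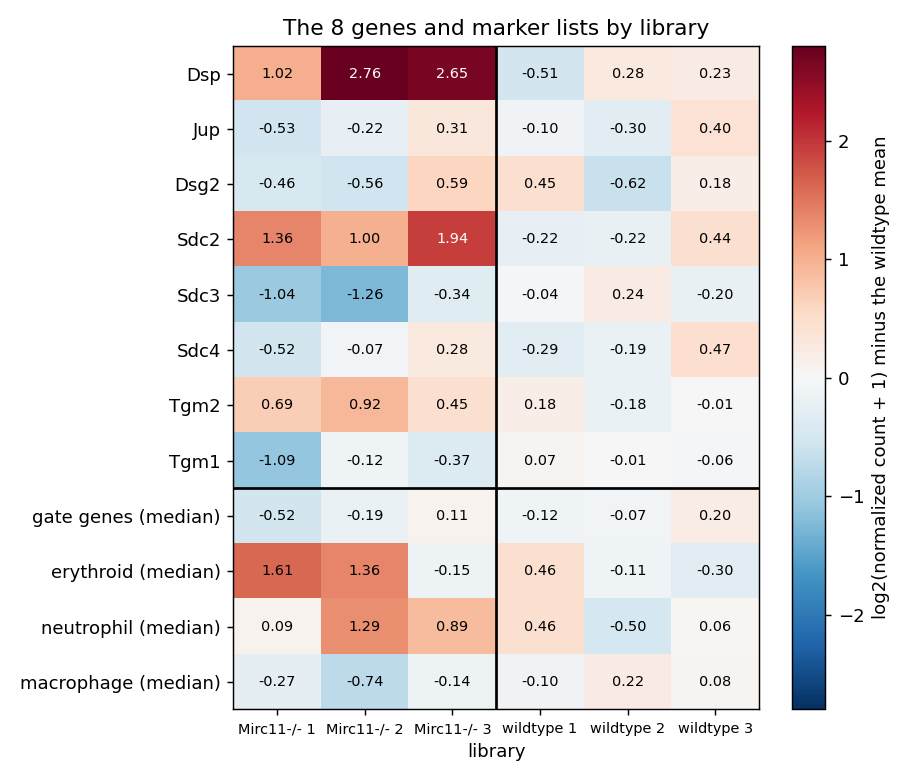
Each cell gives log2(normalized count + 1) of a gene minus its wildtype mean, or the median of that value over the genes of a marker list, in the 3 Mirc11-/- libraries (left) and the 3 wildtype libraries (right); red is above and blue below the wildtype mean. Dsp stands at 1.02, 2.76 and 2.65 in Mirc11-/- libraries, and the erythroid median at 1.61, 1.36 and -0.15.

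Markers of the tissues in which these genes are best known were in part at 0 and in part abundant. Of 12 epithelial markers, the keratin genes Krt5, Krt14 and Krt19 were at 0 in every library, and the sum of 364 to 623 in Mirc11-/- and 422 to 599 in wildtype libraries was mostly Krt18, followed by Epcam. Of 12 stromal markers, Col3a1, Dcn, Lum and Bglap were at 0, and the sum of 679 to 1360 in Mirc11-/- and 874 to 1381 in wildtype libraries was mostly Pdgfrb, followed by Col1a2. Of 12 endothelial markers, led by Pecam1 and Tie1, the sum was 2994 to 4797 in Mirc11-/- and 4200 to 5274 in wildtype libraries. Its defining gene Cdh5 had at most 3.78 normalized counts in Mirc11-/- and 2.98 in wildtype libraries. The macrophage markers, led by Csf1r and Vcam1, summed to 2258 to 3182 in Mirc11-/- and 2922 to 3740 in wildtype libraries. Of the 13 in the table, 2 were lower in Mirc11-/- libraries without overlap (Cd68 and Cd163) and 0 higher. Over all tested genes 6.53% were lower and 6.42% higher. C1qa, C1qb and C1qc stood at or below 9.06 in Mirc11-/- and 8.93 in wildtype libraries. Megakaryocyte markers summed to 3207 to 4843 in Mirc11-/- and 2843 to 4169 in wildtype libraries. Mast cell and basophil markers, led by Hdc, summed to 1621 to 3520 in Mirc11-/- and 1808 to 1967 in wildtype libraries, and Mirc11-/- library 1, which had the highest Fn1 and the lowest Tgm1, also had the highest Prss34. That basophil protease gene had 1023, 321 and 133 normalized counts in Mirc11-/- libraries against 95.7, 58.6 and 174 in wildtype libraries.

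The genes most like Dsp, Sdc2 and Tgm2 over the 6 libraries were sought among 13200 genes with a mean of at least 10 normalized counts, as a description. All points share the 6 libraries and the genotype difference, and these are the highest values among many compared. Nearest to Dsp were Pet117 (Pearson r = 0.985, Spearman rho = 1.00), Kifc3 (r = 0.984, rho = 0.943) and Armc3 (r = 0.982, rho = 0.886), on the log2 scale. Kifc3, a kinesin gene, had 92.7, 167 and 162 normalized counts in Mirc11-/- libraries against 60.2, 72.4 and 59.8 in wildtype libraries. Nearest to Sdc2 were Nbea (r = 0.982, rho = 1.00), Zfp46 (r = 0.981, rho = 0.943) and Rpl39 (r = 0.980, rho = 1.00). Nbea, which encodes the scaffold protein neurobeachin, had 68.1, 61.3 and 96.6 normalized counts in Mirc11-/- libraries against 29.6, 35.7 and 51.7 in wildtype libraries. Nearest to Tgm2 were Fam208a (r = 0.996, rho = 1.00), Mir7079 (r = 0.990, rho = 1.00), whose precursor lies inside Rpl13 and can share its reads, and Nme3 (r = 0.985, rho = 1.00). Fam208a, which encodes a subunit of the HUSH silencing complex, had 1083, 1193 and 1015 normalized counts in Mirc11-/- libraries against 922, 848 and 888 in wildtype libraries. These likenesses are of the course over the libraries and not of the size of the genotype difference. The genotype ranges of Fam208a lay closer together than those of Tgm2. Pet117, nearest to Dsp, had only 127, 151 and 148 normalized counts in Mirc11-/- libraries against 117, 126 and 125 in wildtype libraries.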

How the data were processed

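The authors aligned reads with STAR and ran Cufflinks and DE-seq at default parameters. The submitters' notes name mm10 and the supplementary methods a human build, and the symbols are mouse, so mm10 was used. Tool versions were not given in the sources used here, nor was the annotation. The deposited signal per gene, in a table named for FPKM, equalled whole reads divided by a library factor for 100% of values (tolerance 0.001 reads), and is called a normalized count. No column went unused. Entries sharing 1 of 2 symbols were summed.

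limma 3.58.1 (R 4.3.3), with empirical Bayes moderation and a trend, was fitted to log2(value + 1) of 15662 genes with a mean of at least 1, two-sided with Benjamini-Hochberg adjustment at 0.05. An exact permutation test of 3 against 3 cannot go below p = 0.10. limma replaced the study's DE-seq because the values are normalized; edgeR 4.0.16 and DESeq2 1.42.0 on recovered reads were alternatives, with other pseudocounts, filters, scaling, no trend, a replicate block, an erythroid covariate and each library left out. The fits were also run on simulated counts, drawn for each gene separately. Differences that many genes of a library share, as seen here, were not part of them. The members and lists were chosen with earlier results of these data known. The text names all members, in each related list the 3 genes of smallest p and any past the threshold, the 3 genes most like Dsp, Sdc2 and Tgm2, Kit, Ly6a and abundant markers. Other genes were named after their values were seen. The labels do not say whether libraries came from separate sorts beyond their mice, so p-values measure the spread between these libraries. Sequences are from RefSeq (microRNAs) and GENCODE vM21 on GRCm38 (3′ UTRs).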

Additional observations from a re-analysis of the deposited data

How the results depend on the processing

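Over all genes, 1 was called higher and 4 lower. Dropping the trend gave 2 and 2, and DESeq2 gave 37 and 85. With each library left out, higher calls ranged from 1 to 303 and lower calls from 0 to 228, the largest numbers coming without Mirc11-/- library 3. Calls then ranged from 0 to 1 in the junction list and from 0 to 2 in the heparan sulfate list. The replicate block gave 3 higher and 27 lower calls (0.192% of genes). Residuals of same-numbered libraries correlated at 0.066, -0.063 and 0.097, so the numbers do not show pairing. Ordering the 8 genes by the union of exons kept 11 of 16 ranks. Jup moved below Sdc4 in Mirc11-/- HSPCs and below both Sdc3 and Sdc4 in wildtype HSPCs. Of the seed matches, 1 was of 8 nucleotides. The cause of these shifts was not tested. Of the alternatives, 203 values stayed within 1 SD of the replicates or, for counts, within 1.5 times, and 20 moved, Jup (0.27) and Sdc4 (0.32) with the erythroid covariate among them. Values within that bound include sign changes of genes near 0, such as Dsg2 (0.27 with that covariate), and Tgm1 at -0.25 without Mirc11-/- library 1. The other filters, the fit without trend and the replicate block cannot change the log2 fold change of a gene. Many of the 203 values therefore could not move, and their number does not measure robustness.

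With 3 libraries a genotype, and Dsp and Sdc2 at 20 to 35 reads in wildtype libraries, precision is limited. Exons of Tgm2, Sdc3, Dsg2, Dsp and Tgm1 overlap annotated genes on the opposite strand, whose reads cannot be told apart without strand.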
